A study of Mus musculus with 8 samples.

Results

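The genes described are 9 solute carriers that move amino acids, each found by its symbol: Slc1a4, Slc1a5, Slc7a1, Slc7a5, Slc7a11, Slc3a2, Slc38a1, Slc38a2 and Slc43a1. All 9 were present among the 19909 genes of the deposited tables, which come from bulk RNA sequencing of haematopoietic stem cells (HSCs) sorted from mouse bone marrow. Every mouse, young or old, was Gfplc3/Gfplc3 and so carried LC3 joined to green fluorescent protein (GFP); LC3 sits on autophagosomes and is broken down with their contents, which lowers the GFP signal. Old mice were over 24 months of age, and 3 of them each gave 2 fractions. The AThi fraction (autophagy-high, 3 libraries) held the 33% of HSCs with the least GFP, and the ATlo fraction (autophagy-low, 3 libraries) the 33% with the most. Young mice were 8 to 12 weeks old and gave unfractionated HSCs (2 libraries). All mice were sampled at steady state on 2 sort days, and each RNA sample came from about 10000 HSCs. The old HSCs were gated on GFP and the young HSCs were not, so the effects of gate and age cannot be told apart wherever young HSCs are compared. The genes were listed with the AThi against ATlo contrast in view, and Slc1a4 leads the list for its low level in AThi. AThi against ATlo is therefore described for the 9 genes without a test, and Slc1a4 is described without a test in every comparison.

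Amino acids enter cells on plasma membrane carriers of several families: SLC1A4 and SLC1A5 exchange small neutral amino acids, SLC38A1 and SLC38A2 load glutamine and its relatives with sodium, and SLC7A1 carries arginine and lysine. SLC7A5, which takes up leucine, and SLC7A11, which takes up cystine, are light chains that reach the membrane joined to the heavy chain SLC3A2, while SLC43A1 carries leucine without it. Leucine and arginine in the cell keep the kinase mTORC1 active, active mTORC1 restrains autophagy, and a shortage of amino acids raises the transcription factor ATF4, which drives several of these carriers.

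Recovered depth was 33960216 to 45830216 reads in AThi, 54512285 to 61341946 in ATlo and 44021141 to 45590508 in young. Libraries are named by the tag of their column header, O10, O11 and O12 for old and D11 and D12 for young. A shared O tag is taken to mark the AThi and ATlo columns of an old mouse. All 10 HSC markers were measured, and their summed normalized count was 113999 to 139861 in AThi, 84846 to 106768 in ATlo and 116015 to 117666 in young. The sum of 8 cell cycle markers separated the groups without overlap, at 32864 to 41049 in AThi, 88560 to 98603 in ATlo and 50976 to 65415 in young. The sum of 5 megakaryocyte and platelet markers was 4001 to 4978 in AThi, 5511 to 7898 in ATlo and 2366 to 2608 in young. The 3 libraries tagged 12 stood apart by B cell markers, of which 4 of 6 were measured: AThi O12 summed to 23853, ATlo O12 to 10098 and young D12 to 10753, against 636 to 989 in the other 5 libraries. They stood apart by the erythroid marker Hbb-bs too, at 735 in AThi O12, 2032 in ATlo O12 and 2344 in young D12. Hbb-bs was at 80.5 to 279 in the other 5 libraries. Xist was at 97743 in young D11, at 2747 to 5810 in the libraries tagged 12 and at 32.5 to 171 in the other 4. Xist thus differed between the young libraries, and young D11 lay above every old library. The part of this in comparisons with young was not tested. In bulk RNA, fewer cells of a type and less RNA per cell cannot be told apart.

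Slc1a4 was barely detected in AThi HSCs and clearly present in ATlo and young HSCs. It encodes ASCT1, an exchanger of alanine, serine, cysteine and threonine, and lies on chromosome 11 (20302180 to 20332713, minus strand, GRCm38). The annotation places no other gene over it. Its normalized count was 14.6, 17.6 and 2.09 in AThi O10, O11 and O12, against 94.3, 394 and 126 in ATlo O10, O11 and O12. In young D11 and D12 it was 262 and 139. Every AThi library lay below every ATlo and every young library, and the ATlo and young ranges overlapped.

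**Figure D1:**
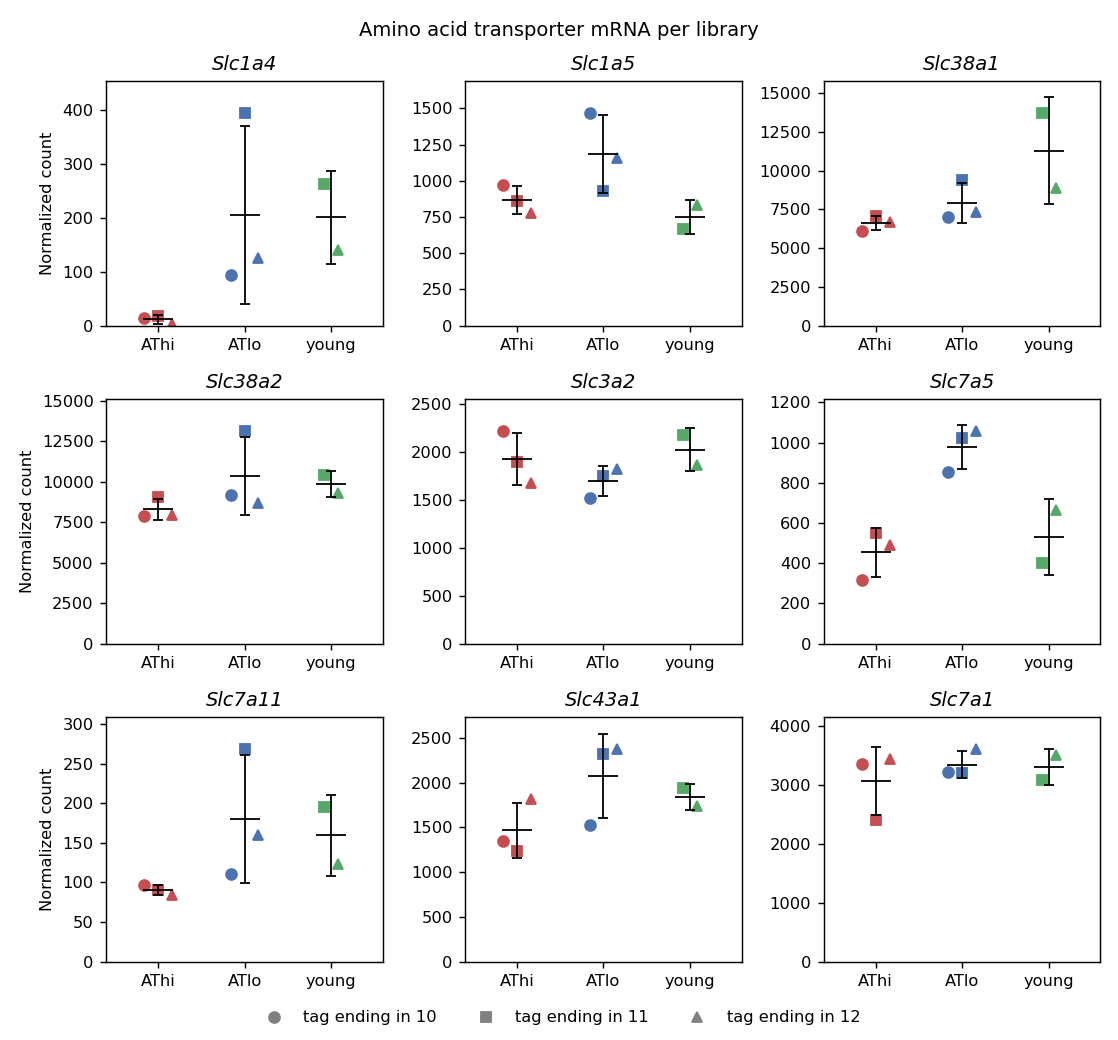
Normalized count (y axis, from 0) of each of the 9 transporters in AThi, ATlo and young HSCs. Each symbol is a library, shaped by its tag, and the horizontal line and whiskers are the group mean and SD (n = 3, 3 and 2). Slc1a4 lies between 2.09 and 17.6 in AThi and between 94.3 and 394 in ATlo, Slc7a5 is at 852 to 1058 in ATlo, and Slc3a2 overlaps between AThi and ATlo.

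The mean and SD of Slc1a4 were 11.4 ± 8.24 normalized counts in AThi and 205 ± 165 in ATlo, of 3 libraries each, and 201 ± 86.5 in the 2 young libraries. In the authors' deposited table the log2 fold change of Slc1a4 was -4.17 (SE 0.77) for AThi over ATlo, an 18.0-fold lower level in AThi. The same source, the authors' deposited table, gave -4.14 (SE 0.85) for AThi over young and 0.03 (SE 0.80) for ATlo over young. The AThi value rests on few reads: Slc1a4 had 10, 16 and 2 reads in AThi, against 120, 496 and 162 in ATlo and 252 and 132 in young. Pooled over libraries and scaled by library factors, 28 AThi reads against 778 ATlo reads gave a log2 ratio of -4.21, with an exact 95% interval of -4.81 to -3.67. The 28 AThi reads against 384 young reads gave -4.19 (-4.80 to -3.64). Both intervals pool the reads of a group, so they describe counting error alone and leave out the spread between mice. The reads carry no molecular identifiers and may repeat a molecule, which would make even the counting error too small. ATlo O11 held more Slc1a4 than the other 2 ATlo libraries together, and in a DESeq2 refit without it the log2 fold change of AThi over ATlo was -3.28, and that of ATlo over young -0.86. With the 3 libraries tagged 12 left out, AThi over ATlo was -3.92 and AThi over young -4.01.

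Within each old mouse, the log2 ratio of AThi over ATlo for Slc1a4 was -2.69 in O10, -4.48 in O11 and -5.91 in O12. The direction was the same in all 3 mice, and the most negative ratio is the one with 2 AThi reads behind it.

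RefSeq promoters (GRCm38.p6, 250 bases before to 50 after the annotated start) were at hand for 6 of the 9 genes, all but Slc1a5, Slc7a5 and Slc38a1. They were searched on both strands for TGATGNAA, the C/EBP-ATF response element that ATF4 binds with a C/EBP partner, because ATF4 is known to drive several of these carriers. It matched in Slc1a4 and Slc7a11 alone among the 6. Their matches are shown in capitals with 20 bases on either side, 5′ to 3′ on the minus strand, which is the strand of both genes; TTGCATCA is the motif read from the opposite strand.
Slc1a4 (chr11:20332690-20332737): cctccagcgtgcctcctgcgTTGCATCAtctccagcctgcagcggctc
Slc7a11 (chr3:50443633-50443699): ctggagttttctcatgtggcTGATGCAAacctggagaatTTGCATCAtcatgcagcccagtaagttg
The Slc1a4 stretch runs from base -24 to base 24 around the annotated start, so that the match lies across the start itself. The Slc7a11 stretch runs from -86 to -20 and holds 2 matches in opposite orientation. The motif was present in 1304 of 32851 promoters (3.97%), or in 1219 of 27025 genes (4.51%), and in 2 of the 6 members. A match is a description of letters and not a shown binding site, and a promoter with no match says only that these letters are not in this window. The E-box CACGTG (7.15% of promoters) matched only in Slc43a1 among the 6, and the AP-1 letters TGANTCA (7.81% of promoters) only in 1 of the 2 promoters of Slc7a1.

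Genes with a mean count of 100 or more were ranked by how closely their log2(normalized count + 1) followed Slc1a4 across the 8 libraries. Genes with predicted, clone, mitochondrial or pseudogene names were dropped beforehand, which left 11034. The closest of these were Prep (Pearson r 0.997), Dhrs13 (0.990), Tnik (0.983), Cox8a (0.977) and Shmt1 (0.973). Prep encodes a prolyl endopeptidase, Cox8a a subunit of cytochrome c oxidase, Tnik a kinase and Shmt1 the cytosolic enzyme that interconverts serine and glycine. Prep had 1841, 1860 and 1470 normalized counts in AThi O10, O11 and O12, against 2300, 2673 and 2314 in ATlo and 2523 and 2308 in young. Prep is lowest in AThi O12 and highest in ATlo O11, as Slc1a4 is, within a far narrower range. It was picked for following Slc1a4, so nothing is read from this likeness. Among the members, Slc7a11 came nearest to Slc1a4 (r = 0.870, rank 139), then Slc38a2 (0.774) and Slc38a1 (0.702), and Slc1a5, Slc7a1 and Slc3a2 were between 0.047 and 0.128. These r are descriptions over 8 libraries that share groups and mice. They lean on the low AThi values that put Slc1a4 on the list, of which that of AThi O12 rests on 2 reads.

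Slc1a5, on chromosome 7 (16781340 to 16798274, plus strand), encodes ASCT2, the glutamine exchanger closest to ASCT1 in the family, and was detected at a similar order in all 8 libraries. It had 970, 860 and 776 normalized counts in AThi O10, O11 and O12, against 1469, 930 and 1160 in ATlo and 667 and 833 in young. AThi overlapped both other groups, while every ATlo library was above both young libraries. The log2 fold change of AThi over ATlo in the authors' deposited table was -0.45 (SE 0.23). Against young, the authors' deposited table gave 0.21 (SE 0.25, adjusted p = 0.854) for AThi and 0.66 (SE 0.25, adjusted p = 0.126) for ATlo, and neither passed.

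Slc38a1 and Slc38a2 lie on the minus strand of chromosome 15 (96571418 to 96642913 and 96687392 to 96699730) and encode SNAT1 and SNAT2, which bring glutamine, alanine and serine into the cell. Slc38a1 had 6114, 7064 and 6650 normalized counts in AThi O10, O11 and O12, against 7016, 9408 and 7331 in ATlo and 13715 and 8858 in young. Young D11 was the highest library by a wide margin, and AThi lay below both young libraries. AThi was lower than young by the authors' deposited table, with a log2 fold change of -0.77 (SE 0.20, adjusted p = 0.00522). Without young D11 the log2 fold change was -0.42 and did not pass (adjusted p = 0.386), and edgeR on the recovered reads did not call it (adjusted p = 0.124). With the 3 libraries tagged 12 left out it was -1.05 (adjusted p = 0.000282, DESeq2 refit). By the authors' deposited table ATlo over young was -0.51 (SE 0.20, adjusted p = 0.148), which passed in refits without young D12 (-0.79, adjusted p = 0.00985) and without the libraries tagged 12 (-0.73, adjusted p = 0.0441). Young D11 is also the library with the high Xist; whether that bears on Slc38a1 was not tested.

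Slc38a2 varied less, with 7865, 9051 and 7975 normalized counts in AThi O10, O11 and O12, against 9199, 13134 and 8705 in ATlo and 10402 and 9279 in young. AThi was below both young libraries by a narrow gap and overlapped ATlo. The authors' deposited table gave -0.25 (SE 0.19, adjusted p = 0.670) for AThi over young and 0.07 (SE 0.19, adjusted p = 0.936) for ATlo over young. For AThi over ATlo, the log2 fold changes of Slc38a1 and Slc38a2 in the authors' deposited table were -0.26 (SE 0.18) and -0.32 (SE 0.17).

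The heavy chain and its light chains had different orders of groups. Slc3a2, the heavy chain (chromosome 19, 8706882 to 8723369, minus strand), had 2222, 1895 and 1674 normalized counts in AThi O10, O11 and O12, against 1523, 1747 and 1825 in ATlo and 2185 and 1869 in young. AThi overlapped both groups, and ATlo lay just below young. Its log2 fold change in the authors' deposited table was 0.18 (SE 0.17) for AThi over ATlo, the only positive one among the 9. Against young it was -0.07 (SE 0.19, adjusted p = 0.959) for AThi and -0.25 (SE 0.19, adjusted p = 0.598) for ATlo in the authors' deposited table.

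Slc7a5, the leucine light chain LAT1 (chromosome 8, minus strand), was highest in ATlo. It had 319, 553 and 490 normalized counts in AThi O10, O11 and O12, against 852, 1022 and 1058 in ATlo and 399 and 665 in young. Each ATlo library was above every AThi and young library. The authors' deposited table gave -1.10 (SE 0.29) for AThi over ATlo, a 2.15-fold lower level in AThi. In a refit without the 3 libraries tagged 12 the value was again -1.10, no longer past the threshold. Over young, the authors' deposited table had -0.23 for AThi (SE 0.32, adjusted p = 0.891) and 0.88 for ATlo (SE 0.32, adjusted p = 0.0998). The ATlo difference passed in DESeq2 refits without AThi O10 (0.87, adjusted p = 0.0435) or without young D12 (1.30, adjusted p = 0.0296). Mki67, a marker of cycling cells, had the same order of groups, with 14140, 14501 and 20394 normalized counts in AThi, against 40270, 42789 and 47738 in ATlo and 16825 and 23152 in young. The part of the cell cycle in the Slc7a5 difference was not tested.

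Slc7a11, the cystine light chain xCT (chromosome 3, 49892526 to 50443614, minus strand), had 96.6, 90.3 and 83.7 normalized counts in AThi O10, O11 and O12. ATlo had 111, 268 and 160, and young had 195 and 124. All 3 AThi libraries were below all 5 others and close to each other, and ATlo O11 was the highest library, as for Slc1a4. The log2 fold change of AThi over ATlo was -0.996 (SE 0.467) in the authors' deposited table. Its contrasts with young in the authors' deposited table were -0.82 (SE 0.52, adjusted p = 0.539) for AThi and 0.17 (SE 0.52, adjusted p = 0.948) for ATlo. Predicted genes overlap the loci of Slc7a5 (1 gene) and Slc7a11 (5 genes) but share no exonic base with them.

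The SLC3A2 light chains Slc7a6, Slc7a7 and Slc7a8 were measured too. Slc7a6, which exchanges arginine for neutral amino acids, had 755, 699 and 711 normalized counts in AThi O10, O11 and O12, against 1037, 1180 and 1049 in ATlo and 902 and 1227 in young. By the authors' deposited table Slc7a6 fell in AThi against ATlo, with a log2 fold change of -0.59 (SE 0.19, adjusted p = 0.0251), and edgeR did not call it (adjusted p = 0.140). Slc7a7, which works in the same exchange, had 486, 546 and 425 in AThi, against 270, 392 and 295 in ATlo and 224 and 156 in young. Every AThi library was above every ATlo library for Slc7a7, but the difference did not pass by the authors' deposited table (0.60, SE 0.29, adjusted p = 0.212). Against young the authors' deposited table called Slc7a7 higher in AThi, at 1.35 (SE 0.33, adjusted p = 0.00194), and edgeR did not (adjusted p = 0.0968). Slc7a8, the second large neutral amino acid light chain, had 894, 1255 and 717 in AThi, against 646, 1202 and 725 in ATlo and 887 and 927 in young, which all overlap.

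Slc43a1 encodes LAT3, the heavy-chain-independent leucine carrier (chromosome 2, 84838850 to 84863594, plus strand). It had 1350, 1234 and 1812 normalized counts in AThi O10, O11 and O12, against 1529, 2318 and 2374 in ATlo and 1944 and 1739 in young. The groups overlapped. AThi over ATlo was -0.50 (SE 0.22) in the authors' deposited table. Neither fraction passed against young there: the authors' deposited table had -0.33 (SE 0.25, adjusted p = 0.666) for AThi and 0.17 (SE 0.25, adjusted p = 0.864) for ATlo.

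Slc7a1, the cationic carrier CAT1 (chromosome 5, 148327410 to 148399904, minus strand), had the smallest difference between AThi and ATlo. It had 3361, 2404 and 3449 normalized counts in AThi O10, O11 and O12, against 3223, 3215 and 3614 in ATlo and 3085 and 3519 in young. AThi O11 was the lowest, and the other 7 libraries lay between 3085 and 3614. AThi over ATlo was -0.13 (SE 0.17) in the authors' deposited table. AThi over young was -0.10 (SE 0.19, 95% interval -0.47 to 0.26, adjusted p = 0.926) in the authors' deposited table, and ATlo over young 0.02 (SE 0.19, 95% interval -0.35 to 0.39, adjusted p = 0.983).

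**Figure D2:**
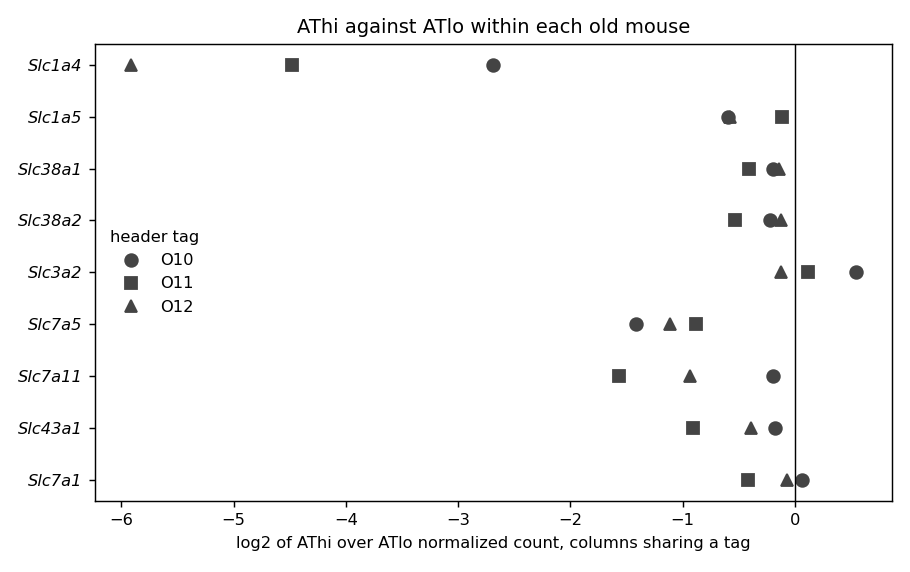
Log2 ratio of AThi over ATlo within each of the 3 old mice (one symbol per tag) for the 9 transporters, with a line at 0. Slc1a4 runs from -5.91 to -2.69, and Slc3a2 lies on both sides of 0, from -0.13 to 0.54.

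Within mice, 7 of the 9 transporters were lower in AThi than in ATlo in 3 of 3 mice. Slc7a1 was lower in 2 of 3 and Slc3a2 in 1 of 3. Slc7a5 gave log2 ratios of -1.42, -0.89 and -1.11 in O10, O11 and O12, the most even of the larger differences. Slc7a11 gave -0.20, -1.57 and -0.94, so that mouse O10 showed little of it. O11 had the most negative ratio of the 3 mice for Slc7a11, Slc7a1, Slc38a1, Slc38a2 and Slc43a1, and in each of these but Slc7a1 its ATlo library was the highest or second highest of the ATlo group.

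Over the list, 2 of 9 members (Slc1a4 and Slc7a5) were past the authors' adjusted p of 0.05 and lower in AThi than in ATlo, beside 4.43% of all genes tested (793 of 17908). None was higher, beside 3.47%, and 7.9% were called in either direction. AThi lay wholly below ATlo in 3 of 9 (Slc1a4, Slc7a5 and Slc7a11), beside 11.6% of genes. The median log2 fold change of the 9 was -0.45, beside 0.02 over all genes, and 8 of 9 were negative. The list was chosen on this contrast, so nothing is read from these shares. The cell cycle markers moved with it, since all 8 fell in AThi against ATlo by the authors' deposited table and by edgeR, and their part in the list's values was not tested.

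Against young, Slc1a4 and Slc38a1 (2 of 9) were past the threshold and lower in AThi, beside 1.91% of genes, and none higher, beside 3.13% (5.04% in either direction). The low AThi level that put Slc1a4 on the list fixes its place in this count, so nothing is read from it, and Slc38a1 is the 1 call among the other 8. AThi lay wholly below young in 4 of 9 (Slc1a4, Slc7a11, Slc38a1 and Slc38a2), beside 14.2% of genes, and wholly above in none, beside 13.9%. The median log2 fold change of AThi over young was -0.25, beside 0.000316 over all genes. In ATlo against young, the authors' DESeq2 test called 0 of 9, beside 4.34% of genes (2.37% higher and 1.98% lower). At an unadjusted p under 0.05 there were 3 members, and edgeR called 0. ATlo lay wholly above young in 2 of 9 (Slc1a5 and Slc7a5), beside 16.1% of genes, and wholly below in 1 (Slc3a2), beside 15.2%. The median of ATlo over young was 0.07, beside 0.01 over all genes. The 3 contrasts share libraries, so that their values for a gene are not independent of each other. No member was called by edgeR in any of the 3 contrasts, where edgeR called 1.41% of genes in AThi against ATlo, 1.21% in AThi against young and 0.653% in ATlo against young.

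**Figure D3:**
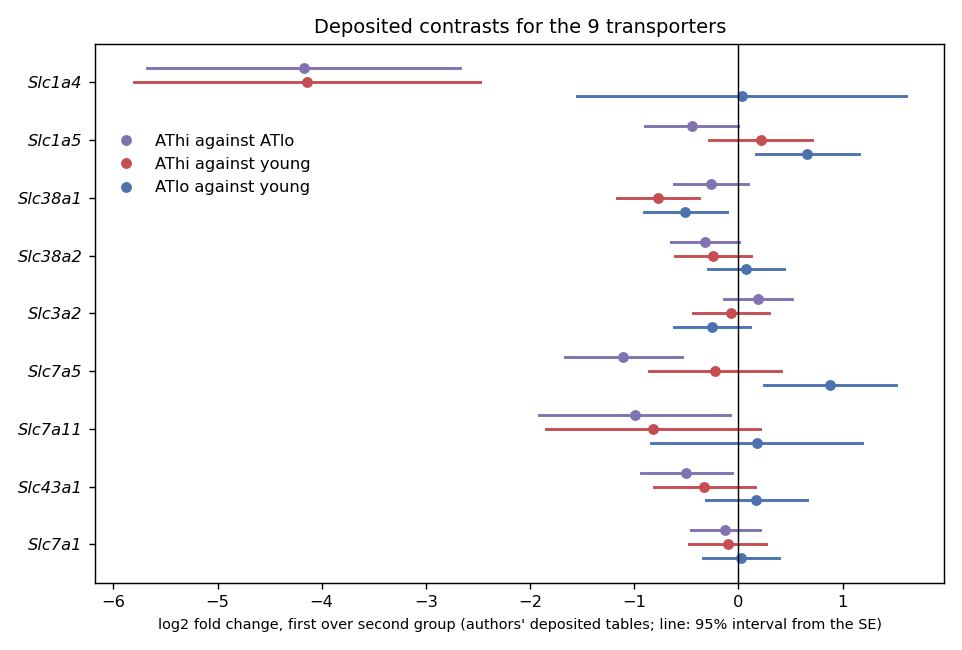
Log2 fold change (x axis, authors' deposited table) of the 9 transporters in AThi over ATlo, AThi over young and ATlo over young. Horizontal lines are 95% intervals from the SE, and the vertical line is at 0. Slc1a4 is at -4.17 and -4.14 in the contrasts of AThi and at 0.03 in ATlo over young; Slc7a5 is at -1.10, -0.23 and 0.88.

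Per kilobase of annotated exon, which allows levels to be set between genes, the 9 members spanned a wide range. In AThi the order by normalized count per kb was Slc38a2 (939 ± 74.1), Slc3a2 (547 ± 78.1), Slc38a1 (383 ± 27.6), Slc7a1 (266 ± 50.3), Slc43a1 (256 ± 53.5), Slc1a5 (208 ± 23.3), Slc7a5 (122 ± 32.6), Slc7a11 (6.48 ± 0.46) and Slc1a4 (2.92 ± 2.10) (SD, n = 3). Slc7a1 and Slc43a1, and Slc43a1 and Slc1a5, did not differ beyond their SDs. In ATlo, Slc38a2 (1171 ± 275) led again, then Slc3a2 (481 ± 44.4) and Slc38a1 (459 ± 75.4), whose SDs overlapped. Slc43a1 (363 ± 82.7), Slc7a1 (291 ± 19.8), Slc1a5 (284 ± 64.8) and Slc7a5 (264 ± 29.6) followed with overlapping SDs, and Slc1a4 (52.1 ± 41.9) and Slc7a11 (12.9 ± 5.79) were last (SD, n = 3). In young the order was Slc38a2 (1113), Slc38a1 (655), Slc3a2 (574), Slc43a1 (322), Slc7a1 (286), Slc1a5 (180), Slc7a5 (144), Slc1a4 (51.1) and Slc7a11 (11.5). Slc1a4 thus had the lowest level of the 9 per kb in AThi and a level above Slc7a11 in ATlo and young. The length counts every annotated exon, used or not (17.236 kb for Slc38a1), so the level of a gene with long unused exons would be set too low.

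**Figure D4:**
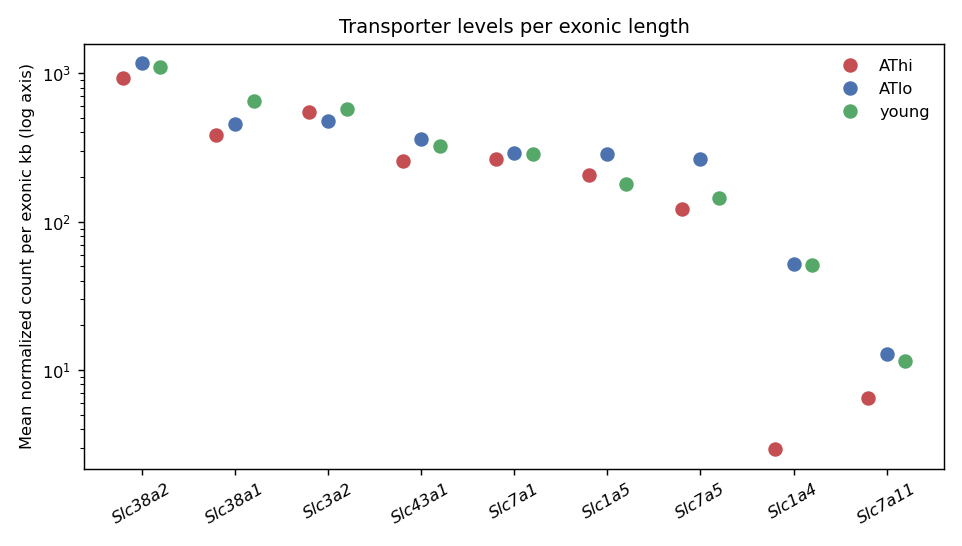
Normalized count per kb of exon (log axis) of the 9 transporters in AThi, ATlo and young; each point is a group mean of 3, 3 and 2 libraries. Slc38a2 is highest in every group (939 in AThi, 1171 in ATlo and 1113 in young), and Slc1a4 drops to 2.92 in AThi.

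Heavy and light chains can be set side by side on the same scale. Slc3a2 was at 547 in AThi, 481 in ATlo and 574 in young per kb. Its light chain Slc7a5 was at 122, 264 and 144 in the same groups, Slc7a6 at 158, 238 and 233, Slc7a7 at 146, 96.3 and 57.4, and Slc7a8 at 191, 171 and 181. In AThi the means of these 4 light chains lay between 122 and 191 per kb. In ATlo the SD of Slc7a8 (171 ± 60.1) overlapped those of Slc7a6 (238 ± 17.3) and Slc7a7 (96.3 ± 19.4).

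Other plasma membrane amino acid carriers went both ways between AThi and ATlo, and few were called. Of 38 listed by function, 20 were in the tables and 18 were tested for AThi against ATlo, where 1 fell (Slc7a6, above) and none rose, beside 4.43% and 3.47% of all genes. The log2 fold change was positive in 11 and negative in 7, with a median of 0.17 beside 0.02 over all genes. In each of the 6 refits that left out 1 old library, and in the fit with the mouse as a block, 0 were called. Against young, AThi had 1 carrier higher (Slc7a7) and 2 lower of 19 tested, beside 3.13% and 1.91% of all genes, and edgeR called none of the 3. Slc7a2, an arginine carrier, had a log2 fold change of -2.20 (SE 0.57, adjusted p = 0.00452, authors' deposited table), with 58.5, 35.2 and 75.3 normalized counts in AThi against 222 and 296 in young. Slc43a2 (LAT4), a close relative of Slc43a1, fell in both old fractions by the authors' deposited table, with a log2 fold change over young of -0.89 in AThi (SE 0.27, adjusted p = 0.0267) and -1.54 in ATlo (SE 0.27, adjusted p = 2.79e-06). It had 594, 821 and 789 normalized counts in AThi, 435, 553 and 421 in ATlo and 1626 and 1096 in young. The ATlo difference of Slc43a2 passed in edgeR as well (adjusted p = 0.0335), while in AThi edgeR called neither Slc43a2 (adjusted p = 0.174) nor Slc7a2 (adjusted p = 0.0989). Without young D11, 1 carrier was called for AThi against young, where the authors' table called 3.

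**Figure D5:**
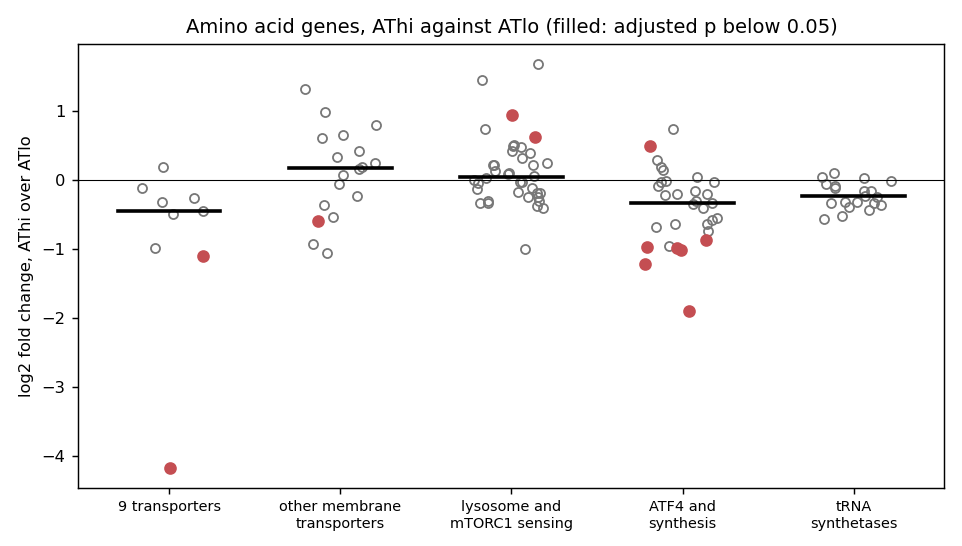
Log2 fold changes (authors' deposited table) of AThi over ATlo (y axis) for the members and the 4 related lists; each point is a gene, filled where the adjusted p is below 0.05, and the bar is the list median. The median is -0.45 for the members, 0.17 for other carriers, 0.04 for sensing genes, -0.34 for ATF4 and synthesis genes and -0.24 for tRNA synthetases.

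Lysosomal carriers and genes that report amino acids to mTORC1 also went both ways. Of 38 measured of 39, 2 rose in AThi against ATlo and none fell, beside 3.47% and 4.43% of all genes. The log2 fold change was positive in 20 and negative in 18, with a median of 0.04. By the authors' deposited table, the log2 fold change of Sesn3, a sestrin that restrains mTORC1, was 0.62 (SE 0.16, adjusted p = 0.00341), and that of Castor2, of the arginine sensor family, was 0.93 (SE 0.25, adjusted p = 0.00467). Sesn3 had 7527, 9436 and 8610 normalized counts in AThi, against 5385, 6411 and 4825 in ATlo and 10985 and 8372 in young. AThi overlapped young for Sesn3, and every ATlo library was below every other. The authors' deposited table gave ATlo over young a log2 fold change of -0.80 (SE 0.18, adjusted p = 5.73e-04), a call lost without young D11. In AThi against young the authors' deposited table called 1 gene of the 38, beside 5.04% of all genes. It was Rragd, a Rag GTPase that carries the amino acid signal to mTORC1 (log2 fold change 2.66, SE 0.78, adjusted p = 0.0178). Its normalized counts were 303, 159 and 56.5 in AThi, against 24.9 and 29.6 in young. That call was lost in edgeR (adjusted p = 0.195) and without AThi O10, AThi O11 or young D12. For AThi against ATlo, 1 gene was called without AThi O10 and 4 without AThi O12, and for AThi against young, 2 without ATlo O11. Neither Sesn3 nor Castor2 passed in edgeR.

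The joint list of ATF4 response, amino acid synthesis and one-carbon genes leaned lower in AThi than in ATlo. Of 31 tested, 6 fell and 1 rose, beside 4.43% and 3.47% of all genes, with a median of -0.34 beside 0.02 over all genes. The log2 fold change was negative in 25 and positive in 6. The 8 cell cycle markers were lower in the same contrast, with sums of 32864 to 41049 in AThi and 88560 to 98603 in ATlo, and their part in this list's values was not tested. In the authors' deposited table the log2 fold change of Psat1, a serine synthesis enzyme, was -0.88 (SE 0.17, adjusted p = 1.17e-05). The folate enzymes Mthfd1 and Mthfd1l were called too by the authors' deposited table, Mthfd1 at -0.99 (SE 0.20, adjusted p = 3.95e-05) and Mthfd1l at -0.97 (SE 0.20, adjusted p = 4.95e-05). Psat1 had 2083, 2076 and 2892 normalized counts in AThi, against 4226, 4175 and 4588 in ATlo and 3084 and 3681 in young. These 3 were also called by edgeR (adjusted p = 0.0318, 0.0391 and 0.0406). Ass1, which makes argininosuccinate for arginine synthesis, was at -1.23 by the authors' deposited table (SE 0.30, adjusted p = 0.00139) and did not pass in edgeR (adjusted p = 0.0859). Mthfd2, a mitochondrial folate enzyme named after its value was seen, was at -1.90 by the authors' deposited table (SE 0.59, adjusted p = 0.0225), and not called by edgeR (adjusted p = 0.158). Shmt1 was the remaining gene called lower by the authors' deposited table, at -1.02 (SE 0.26, adjusted p = 0.00280). The gene called higher there was Glul, glutamine synthetase, at 0.48 (SE 0.17, adjusted p = 0.04955). edgeR called neither Shmt1 (adjusted p = 0.0921) nor Glul (adjusted p = 0.191). The genes called lower were thus all synthesis or folate enzymes. Atf4 mRNA itself was at -0.02 by the authors' deposited table (SE 0.25, adjusted p = 0.979). Other ATF4 response genes went both ways there, and none of those named here was called. Trib3 was at 0.74 (SE 0.46), Ddit4 at 0.28 (SE 0.28) and Cebpb at 0.04 (SE 0.63). Cebpg was at -0.10 (SE 0.17), Ddit3 at -0.20 (SE 0.36), Asns at -0.36 (SE 0.18) and Atf5 at -0.97 (SE 0.50).

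Against young the synthesis list gave few calls, with 1 of 32 tested higher and 1 lower in AThi, beside 3.13% and 1.91% of all genes. In ATlo 1 was higher and none lower, beside 2.37% and 1.98%. Asns, asparagine synthetase and a textbook ATF4 target, rose in both old fractions by the authors' deposited table, by 0.70 in AThi (log2; SE 0.21, adjusted p = 0.0233) and by 1.05 in ATlo (SE 0.21, adjusted p = 5.06e-05). edgeR called Asns in neither fraction (adjusted p = 0.170 in AThi and 0.0615 in ATlo). It had 790, 710 and 798 normalized counts in AThi, 852, 1019 and 1078 in ATlo and 489 and 457 in young, so that both old fractions lay above young. The log2 fold change of Mthfd1l in AThi over young was -1.06 by the authors' deposited table (SE 0.22, adjusted p = 1.06e-04). For AThi against young, 1 gene of the list was called without AThi O10, ATlo O11, young D11 or young D12, and 4 without ATlo O12; for ATlo against young, 2 were called without AThi O10 or ATlo O10, where the authors' table called 1. Cytosolic tRNA synthetases charge tRNAs with amino acids. The authors' DESeq2 test called 0 of 20 in AThi against ATlo, beside 7.9% of all genes (6 at an unadjusted p under 0.05, edgeR 0). Of the 20 synthetases, 17 were negative, with a median of -0.24 beside 0.02 over all genes. With the mouse as a block 2 of them were called, and between 0 and 3 with 1 library left out (1 without AThi O10 or AThi O11, 3 without AThi O12, 2 without ATlo O10). In AThi against young 0 were called, beside 5.04% of all genes (2 at an unadjusted p under 0.05, edgeR 0). By the authors' deposited table Lars, the leucine enzyme, rose by 0.67 in ATlo over young (log2, SE 0.14, adjusted p = 9.64e-05). It was the 1 call of 20 in that contrast, beside 4.34% of all genes. edgeR did not call Lars (adjusted p = 0.0657), and 2 synthetases were called there without ATlo O10.

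The C/EBP-ATF letters shown for Slc1a4 and Slc7a11 were also in the promoters of 4 of 26 genes of the ATF4 and synthesis list (Asns, Pycr1, Got1 and Trib3; 15.4%) and of 5 of 13 tRNA synthetases (Aars, Gars, Iars, Tars and Yars; 38.5%). They were in 1 of 16 other carriers (Slc7a7; 6.25%) and 1 of 33 sensing genes (3.03%).

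The authors' deposited table of 726 upstream regulators, computed on AThi against ATlo, lists Slc1a4 among the targets of 11 regulators and Slc7a5 among those of 28. The other 7 transporters are listed under none. None of these 7 passed the threshold in this contrast, so nothing is read from their absence. Named here after the values were seen, the let-7 microRNA entry lists Slc1a4 with an activation score of 5.64 over 37 targets (overlap p = 2.78e-22), and FOXO3, a factor that drives autophagy genes, lists it with a score of 2.61 over 33 targets (overlap p = 2.45e-13), in the authors' deposited table. MYC, a driver of growth, lists Slc7a5 with a score of -4.98 over 52 targets in the authors' deposited table. The scores were computed on the contrast that chose the members and are given as deposited.
mmu-let-7a-5p (chr13:48538239-48538260, minus strand): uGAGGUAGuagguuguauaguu
The RefSeq sequence of let-7a is shown because its seed, in capitals (bases 2 to 8), names one of the entries that list Slc1a4. The letters that pair with the seed, CTACCTC, do not occur in the 3′ UTR of the longest annotated coding transcript of Slc1a4 (2086 bases). For every gene the longest coding transcript was searched and the others were not. They occur in 8.80% of 20947 mouse 3′ UTRs and in 13.0% of 2979 of similar length. Among the 9 transporters, Slc7a11 alone has a match:
Slc7a11 3′ UTR (chr3:50367156-50367184, minus strand): ctatgtccttaCTACCTCttgatgaagcc
The absence of the letters says only that they are not in that window.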

How the data were processed

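RNA was measured in 8 libraries, which the labels put in AThi (3), ATlo (3) and young (2). Per the submitters' processing notes, STAR, featureCounts, DESeq2, FastQC and MultiQC were run against GRCm38. The sources used here do not give their versions, the gene annotation or the strand setting. The authors deposited a normalized count per library (signal: reads over 1 factor per library). For each contrast they deposited a log2 fold change, its SE, the Wald score, and p-values before and after adjustment. A further table the authors deposited gives regulators with an activation score and a p-value.

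Each column, divided by what 1 read is worth in it, came out whole for 100% of values (tolerance 0.01 read). Ribosomal RNA genes took 27.1% to 36.1% of reads. Calls are those of the Wald test in DESeq2 that the authors deposited, at a Benjamini-Hochberg adjusted p-value below 0.05 over all genes, and a refit of the recovered reads called as many genes (1414, 961 and 811). Alternatives were edgeR 4.0.16 (quasi-likelihood test) and limma 3.58.1 with pseudocounts of 1 and 10. DESeq2 1.42.0 (R 4.3.3) was also run with TMM factors, no low-count filter, a mouse block or libraries left out. Only the default DESeq2 fit, edgeR and limma with a pseudocount of 1 were tested on simulated data. Tables and figures were made in Python 3.11.15 with pandas 2.3.3, numpy 2.4.6, matplotlib 3.10.9 and scipy 1.17.1. Loci and exon lengths come from the GENCODE annotation of GRCm38, and promoters and microRNAs from RefSeq.

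The members and lists were chosen with earlier results of these data known. The rule for named genes takes all 9 members, up to 4 called genes per other list and contrast by adjusted p, and Mki67 and Top2a. It adds the 5 genes most correlated with Slc1a4, with a mean count of 100 or more and no predicted, clone, mitochondrial or pseudogene name. The light chains Slc7a6, Slc7a7 and Slc7a8, Atf4, Mthfd2, Glul and the regulators were added after their values were seen. So were Trib3, Ddit3, Ddit4, Cebpb, Cebpg, Atf5 and Hbb-bs. The labels state that the old fractions are paired, and columns with the same O tag deviated together (r = 0.209, 0.164 and 0.373 over 13611 genes; other pairs -0.232 to 0.0301), so the tags pair the fractions. The authors' test, edgeR and limma were fitted on group alone. Their p-values for AThi against ATlo therefore leave out the pairing of fractions, which only the replicate block fit uses. P-values measure the spread between these libraries, and depths carry counting error only.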

Additional observations from a re-analysis of the deposited data

How the results depend on the processing

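Counts are given for AThi against ATlo, AThi against young and ATlo against young in this order. The authors' test called 2, 2 and 0 members, 1, 3 and 1 other carriers, 2, 1 and 1 sensing genes, 7, 2 and 1 ATF4 and synthesis genes and 0, 0 and 1 tRNA synthetases. TMM scaling and dropping the low-count filter kept each of these within 1.5 times. edgeR on the recovered reads called 0, 0 and 0 members, 0, 0 and 1 other carriers, 0, 0 and 0 sensing genes, 3, 1 and 0 ATF4 and synthesis genes and 0, 0 and 0 synthetases; over all genes it called 280, 240 and 130, where the authors' test called 1414, 961 and 811. limma with a pseudocount of 1 called 1, 0 and 0 members, 0, 0 and 1 other carriers, 0, 0 and 0 sensing genes, 3, 1 and 1 ATF4 and synthesis genes and 0, 0 and 0 synthetases. limma with a pseudocount of 10 differed from this only in AThi against young, with 1 member. With the replicate block, which pairs the fractions of a mouse and was fitted for AThi against ATlo, 2 members, 0 other carriers, 3 sensing genes, 9 ATF4 and synthesis genes and 2 synthetases were called. With the 3 libraries tagged 12 left out, an alternative chosen after seeing the data, the counts were 1, 2 and 1 members, 0, 1 and 1 other carriers, 1, 1 and 1 sensing genes, 4, 1 and 0 ATF4 and synthesis genes and 0, 0 and 0 synthetases. Leaving out 1 library at a time gave 2 to 3, 1 to 2 and 0 to 2 members, 0 to 1, 1 to 3 and 1 to 1 other carriers, 1 to 4, 0 to 2 and 0 to 1 sensing genes, 5 to 8, 1 to 4 and 1 to 2 ATF4 and synthesis genes, and 0 to 3, 0 to 0 and 1 to 2 synthetases. The cause of these changes was not tested. Of the values of single members, 128 kept direction and side of the threshold, 5 lost the call and 2 gained it in AThi against ATlo; 120 and 6 lost in AThi against young; and 122 and 4 gained in ATlo against young, where a value without a call that changed sign counts as kept. The log2 fold change of Slc1a4 in AThi over ATlo ran from -4.67 to -3.28 with 1 library left out, and was -3.15 with a pseudocount of 10. Few libraries (3, 3 and 2) and, for Slc1a4, few AThi reads limit these values.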
